A study of Mus musculus with 3 samples.

Results

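The cell-cycle cyclins described here are 8 genes, Ccnd1, Ccnd2, Ccnd3, Ccne1, Ccne2, Ccna2, Ccnb1 and Ccnb2, whose rows were taken by gene symbol from a table of 49997 genes. All 8 of the 8 passed a filter on low counts that left 19601 genes for testing. The RNA came from E14 mouse embryonic stem cells (ESCs), and all 3 libraries were made after 24 h of doxycycline (Dox). As the study describes them, these cells hold a Dux transgene that Dox induces, whose product switches on genes of the 2-cell (2C) embryo, and a tdTomato reporter driven by the Mervl promoter. The comparison asked which transcripts were pulled down with YTHDF2, a protein that reads N6-methyladenosine (m6A) in RNA, and set 2 YTHDF2 IP libraries against 1 input library. Cells without Dox and an IP with a control antibody were not analysed here, so values below describe Dox-treated cells and include whatever RNA the beads hold without the antibody. The input has no replicate, and nothing says that the IP libraries came from separate cultures, so p-values measure only the spread between these libraries.

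Cyclins are the regulatory subunits of cyclin-dependent kinases (CDKs), and each type acts in its own part of the cell cycle. D-type cyclins work with CDK4 and CDK6 in G1, E-type cyclins with CDK2 at entry into S phase, cyclin A2 with CDK2 and CDK1 through S phase and G2, and B-type cyclins with CDK1 in mitosis. ESCs are known for a short G1 phase, and YTHDF2 is known to bring m6A-marked transcripts to the enzymes that shorten their poly(A) tails.

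The study gives the m6A motif as DRACH (D is A, G or U, R is A or G, H is A, C or U) and reports GGAC as highly enriched. Only GGAC followed by A, C or T was searched, on the transcript strand of each cyclin. For each gene, the match in coding sequence nearest to the stop codon with its flanks in the same exon is shown as DNA letters, 5′ to 3′, with the 5 matching bases in capitals.
Ccnd1: tgaactacctGGACCgcttcctgtc
Ccnd2: tggaagatccGGACCaagccaccac
Ccnd3: agctcaagtgGGACCtggctgccgt
Ccne1: acttggcacaGGACTtctttgatcg
Ccna2: cttgtcttgtGGACCttcaccagac
Ccnb1: tctccatgctGGACTacgacatggt
Ccnb2: ttgccatcatGGACCggttcctgca
No line is given for Ccne2, whose coding sequence held 0 matches.

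In the mm10 build (RefSeq annotation of GRCm38.p6), the capitals lie at chr7:144938042-144938046 on the minus strand for Ccnd1, chr6:127130376-127130380 on the minus strand for Ccnd2 and chr17:47597455-47597459 on the plus strand for Ccnd3. They lie at chr7:38100650-38100654 for Ccne1, chr3:36566611-36566615 for Ccna2, chr13:100780859-100780863 for Ccnb1 and chr9:70412853-70412857 for Ccnb2, all on the minus strand. The match of Ccnd2 ends 38 bases before the stop codon and that of Ccna2 116 bases before it, whereas that of Ccne1 ends 716 bases before it. Coding sequence held 3 matches in Ccnd1, 5 in Ccnd2, 4 in Ccnd3, 6 in Ccne1, 5 in Ccna2, 2 in Ccnb1 and 5 in Ccnb2. Of 21774 coding genes, 94.3% held at least 1 match in coding sequence, with a median of 5. Counted within single exons, which leaves out 1 match of Ccnb1 and 1 of Ccne1 that span an exon junction, 2 cyclins stood low, with 0.432 matches per kb in Ccnb1 and 0.906 per kb in Ccne2 against a median of 3.53 per kb in 15201 tested protein-coding genes. A match is only a run of letters, other forms of the motif were not searched, and m6A itself was not measured in these libraries.

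Library totals were 36986994 counts for the input, 35259827 for IP replicate 1 and 35888743 for IP replicate 2. Transcripts of the 8 ESC markers, which include Pou5f1, Nanog and Sox2, summed to 10765 TPM (counts scaled for exonic length and library size) in the input, and to 9577 and 9553 TPM in IP. Dppa5a alone held 5993 TPM in the input, against 3712 and 3813 TPM in IP. By the edgeR test used below, at any fold, 4 of the 8 were higher in IP, Pou5f1 and Sox2 among them, and 3 were lower. Markers of other cells summed to less in the input, at 36.1 TPM for 6 fibroblast genes, 7.83 TPM for 6 primitive endoderm genes and 24.7 TPM for 6 trophoblast genes. In IP replicates 1 and 2 these sums were 26.4 and 26.3, 11.2 and 8.43, and 45.2 and 46.7 TPM. Thy1 (33.0 TPM in the input) and Eomes (14.3 TPM) made up most of the fibroblast and trophoblast sums, whereas Col3a1 and Postn of the former list and Cdx2 and Elf5 of the latter had 3 input counts or fewer. The 7 markers of the 2C state, part of what Dox switches on in this system, summed to 1741 TPM in the input, and to 2965 and 2943 TPM in IP. Zscan4c (488 TPM in the input, 1210 and 1185 TPM in IP) and Zscan4d (897, then 1324 and 1330 TPM) made up most of these sums. Usp17la was nearly level, at 222 TPM against 238 and 248 TPM, and Gm6763 had 1 input count. Of the 6 tested, only Zscan4c was enriched by the rule given below. These are bulk libraries. For a level in the input, the number of cells expressing a cyclin and the RNA per cell cannot be told apart.

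Of the 8 cyclins, 6 were depleted in YTHDF2 IP, namely Ccne2, Ccnd3, Ccnb1, Ccnb2, Ccna2 and Ccnd1, and 0 were enriched. A gene was called at an adjusted p-value under 0.05 by edgeR's quasi-likelihood test (Benjamini-Hochberg adjustment over all tested genes) and a fold change over 2. By that rule 14.0% of all tested genes were depleted and 15.2% were enriched. With no limit on the fold, 6 cyclins were lower and 1, Ccne1, was higher, against 30.1% and 28.5% of all tested genes. The remaining cyclin, Ccnd2, did not pass the test. The median log2 fold change of the 8 cyclins was −1.19, with quartiles at −1.46 and −0.829, whereas over all tested genes it was 0.0065 (quartiles −0.721 and 0.809). When the dispersion, the spread between libraries beyond counting noise, was set to 0.1 for every gene, only Ccnd3 and Ccne2 stayed depleted and Ccne1 no longer passed the test. No cyclin reached a fold of 2 upward at any p-value, and the Wald test of DESeq2 also left 0 enriched.

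**Figure D1:**
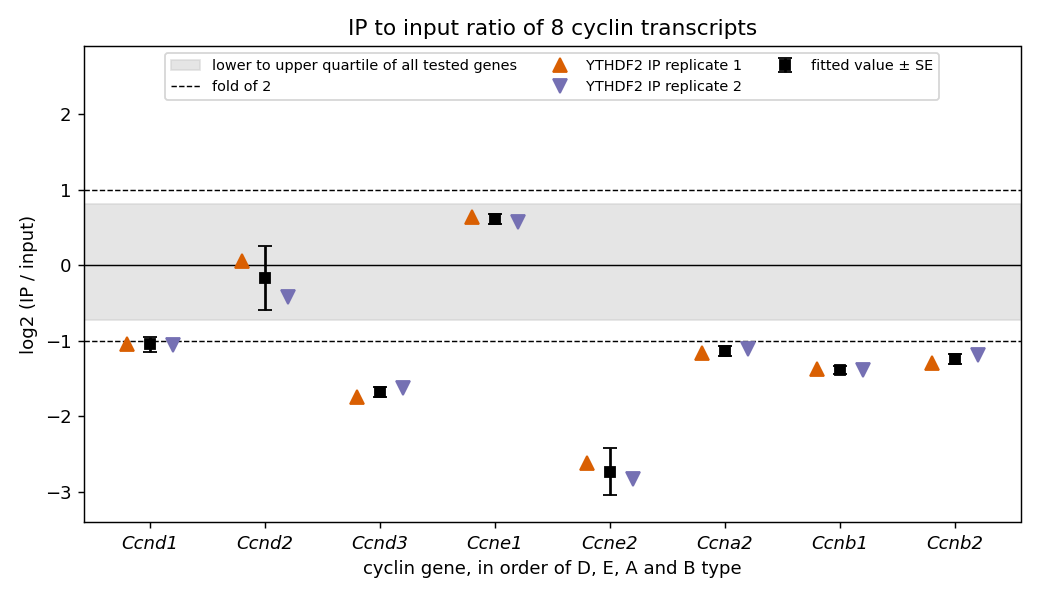
Log2 ratio of IP to input for each cyclin (vertical axis) in YTHDF2 IP replicate 1 (upward triangles) and replicate 2 (downward triangles), with the value fitted by edgeR and its SE (squares with bars). The grey band runs from the lower to the upper quartile of all 19601 tested genes and dashed lines mark a fold of 2; Ccne1 lies above 0 in both libraries, Ccnd2 straddles 0, and the other 6 cyclins lie below the lower dashed line.

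The plot of IP to input ratios shows how close the libraries were to each other. For the 7 cyclins other than Ccnd2, both IP libraries fell on the same side of the input.

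Among the D-type cyclins, which start the phosphorylation of RB, Ccnd3 was the most abundant and the most depleted. Ccnd3 (chr17:47505051-47599689, plus strand) was counted 9711 times in the input, against 2960 and 3264 times in IP replicates 1 and 2. Both IP libraries were well below the input, with log2 ratios of −1.74 and −1.62. The fitted log2 fold change was −1.68 ± 0.07 (SE), which is 3.21-fold lower in IP (edgeR adjusted p = 1.80e-36). Among all tested genes, 6.94% had a log2 fold change this low or lower. A pseudogene copy, Ccnd3-ps, matches 63.6% of the exonic bases of Ccnd3 at 95% identity or more, and 359 of its exonic bases overlap Bysl on the opposite strand. The copy held 9, 4 and 2 counts, and none of the Ccnd3 bases lay in a copy at 99% identity.

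Ccnd1 (chr7:144929931-144939831, minus strand), the D-type cyclin that many growth factor signals induce, had 1995 input counts, and its IP counts were 991 and 992. The IP libraries were nearly equal and both lay below the input, with log2 ratios of −1.04 and −1.06. The log2 fold change, fitted over the IP libraries, was −1.05 ± 0.10 (SE), or 2.07-fold lower (edgeR adjusted p = 3.34e-15). Ccnd1 is the depleted cyclin closest to the fold threshold, and scaling to total counts (−0.952) or to TPM (−0.897) left it inside. Its exons overlap those of LTO1 on the opposite strand over 818 bases, and LTO1 itself went from 668 input counts to 1397 and 1434 in IP.

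Ccnd2 (chr6:127125162-127152188, minus strand), the remaining D-type cyclin, was low, with 70 input counts and IP counts of 74 and 54. The IP libraries fell on either side of the input, with log2 ratios of 0.05 and −0.42. Its log2 fold change was −0.17 ± 0.42 (SE) (edgeR adjusted p = 0.752), and no difference was detectable at this depth. The log2 ratio of Ccnd1 exceeded that of Ccnd3 by 0.705 in IP replicate 1 and by 0.565 in replicate 2, so the depletion of these D-type cyclins was unequal in the same order in both libraries. Both differences share the input and were not tested.

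The E-type cyclins, which activate CDK2 as cells enter S phase, moved in opposite directions. Ccne1 (chr7:38097984-38107490, minus strand) went up from 4431 input counts to 7059 and 6831 in IP. It was the only cyclin above the input in both IP libraries, with log2 ratios of 0.64 and 0.57. Its log2 fold change came to 0.61 ± 0.07 (SE), or 1.53-fold higher (edgeR adjusted p = 8.97e-13), which is below the fold of 2 needed for a call. Of all tested genes, 69.6% had a log2 fold change as low or lower, and Ccne1 lay inside the quartiles of all genes. It had neither a near-identical copy elsewhere nor an exon shared with another gene.

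Ccne2 (chr4:11190433-11204779, plus strand) went down from 285 input counts to 47 and 41 in IP. Both IP libraries held far fewer counts than the input, with log2 ratios of −2.62 and −2.83. The log2 fold change, fitted over the IP libraries, was −2.73 ± 0.31 (SE), or 6.64-fold lower (edgeR adjusted p = 2.56e-12). This was the lowest value of the 8 cyclins, and 2.23% of all tested genes were as low or lower. Of its 3313 exonic bases, 1734 overlap Ints8 on the opposite strand. Counting ignored strand and dropped reads that touched several genes, so the counts of Ccne2 come from the rest of its exons and its level per length is understated. Ints8 was itself lower in IP, at 670 and 831 counts against 2432 in the input.

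The log2 ratio of Ccne1 exceeded that of Ccne2 by 3.26 in IP replicate 1 and by 3.41 in replicate 2, which makes the ratio of their fitted folds 10.1. This was the widest gap within a cyclin type, and it was not tested, since both genes share the input.

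Ccna2 (chr3:36564865-36573038, minus strand), the A-type cyclin of dividing somatic and stem cells, had 8701 input counts, against 3955 and 4175 in IP. Both IP libraries lay below the input, with log2 ratios of −1.17 and −1.11. The log2 fold change came to −1.14 ± 0.06 (SE), or 2.20-fold lower (edgeR adjusted p = 4.34e-27). Removing the trend with GC content (−0.998) or scaling to TPM (−0.987) brought it to just inside the fold of 2. Its exons overlap Exosc9 on the opposite strand over 378 bases.

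Ccnb1 (chr13:100778739-100786486, minus strand), the main partner of CDK1 in mitosis, led the 8 cyclins in the input with 14942 counts and fell to 5864 and 5898 in IP. The IP libraries were nearly equal, with log2 ratios of −1.38 and −1.39. The log2 fold change, fitted over the IP libraries, was −1.39 ± 0.06 (SE), or 2.61-fold lower (edgeR adjusted p = 4.15e-35). Ccnb1 has 5 loci elsewhere in the genome that match it at 95% identity or more, and 64.2% of its exonic bases lie in a copy of at least 99% identity. Reads that fitted several places had been left out, so its counts are uncertain, and the genes annotated at the copies held 308, 123 and 89 counts. With the GC trend removed its log2 fold change was −0.98.

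Ccnb2 (chr9:70407689-70421554, minus strand), the other B-type cyclin, dropped from 8965 input counts to 3739 and 4079 in IP, and had neither a copy nor an overlapping gene. Both log2 ratios were past the fold of 2, at −1.29 and −1.19. The log2 fold change came to −1.24 ± 0.06 (SE), or 2.36-fold lower (edgeR adjusted p = 6.22e-29). Its ratio exceeded that of Ccnb1 by 0.0878 and 0.205 in IP replicates 1 and 2, and that of Ccna2 exceeded Ccnb2 by 0.124 and 0.0767. With the trend on exon density removed, its log2 fold change was −0.918.

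Set per length, the order of the cyclins changed between input and IP. In the input, Ccnb1 was highest at 371 TPM, followed by Ccnb2 at 335, Ccnd3 at 222, Ccna2 at 148, Ccne1 at 130, Ccnd1 at 30.5, Ccne2 at 4.95 and Ccnd2 at 0.628 TPM. In IP, Ccne1 was highest, at 226 and 215 TPM in replicates 1 and 2. Next came Ccnb1, at 159 and 157 TPM, and Ccnb2, at 152 and 163 TPM, whose ranges overlapped. Ccnd3, at 73.9 and 79.9 TPM, and Ccna2, at 73.5 and 76.1 TPM, overlapped as well. Ccnd1 followed at 16.5 and 16.2 TPM. The lowest were Ccne2, at 0.89 and 0.761 TPM, and Ccnd2, at 0.725 and 0.518 TPM, which did not overlap. The level of Ccne2 is set over its full exonic length, of which 1734 of 3313 bases could not be counted, so its distance from Ccnd2 is understated. Ccnb1 is also set over its full length, though 64.2% of its exonic bases lie in a copy of at least 99% identity. Reads that fitted several places were left out, so its level may be understated, and its place below Ccne1 in IP is uncertain. Overlapped bases of Ccnd1, Ccna2 and Ccnd3 could not be counted either.

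**Figure D2:**
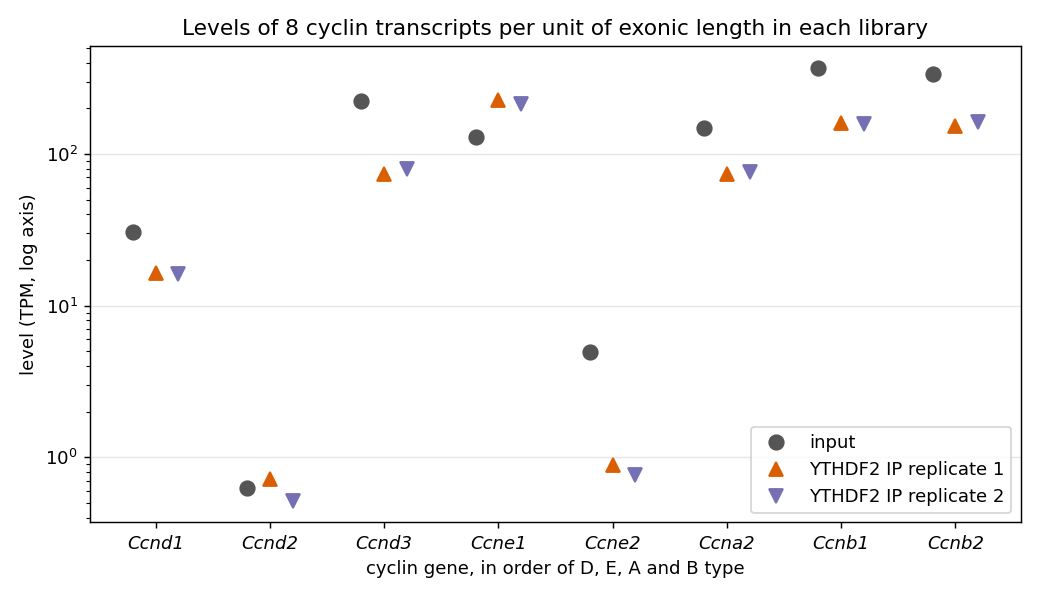
Level of each cyclin transcript in TPM (vertical log axis) in the input (circles) and in YTHDF2 IP replicates 1 (upward triangles) and 2 (downward triangles). Ccne1 lies at 130 TPM in the input and higher, at 226 and 215 TPM, in IP, whereas Ccnb1, the highest in the input at 371 TPM, lies at 159 and 157 TPM in IP.

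The summed level of the 8 cyclins was 1242 TPM in the input, against 703 and 708 TPM in IP. Ccne1 took 9.02% of the cyclin counts in the input (95% Wilson interval 8.77 to 9.28), and 28.6% (28.0 to 29.2) and 27.0% (26.4 to 27.5) in IP replicates 1 and 2. Ccnd3 went the other way, from 19.8% (19.4 to 20.1) to 12.0% (11.6 to 12.4) and 12.9% (12.5 to 13.3). The B-type pair made up 48.7% (48.2 to 49.1) of cyclin counts in the input and 38.9% (38.3 to 39.5) and 39.4% (38.8 to 40.0) in IP. Shares of Ccna2 and Ccnd1 moved little, from 17.7% to 16.0% and 16.5% for Ccna2 and from 4.06% to 4.01% and 3.92% for Ccnd1. These intervals cover counting error only, and since both mates of a pair were counted they are too narrow. The share of Ccnb1 may be understated in every library, and those of the other cyclins overstated, because reads that fitted several places were left out.

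**Figure D3:**
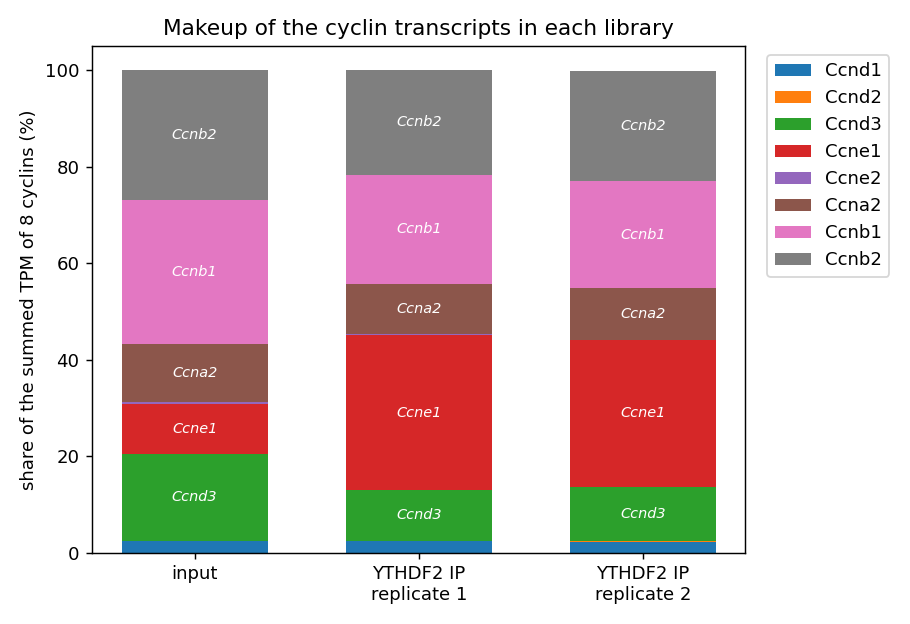
Share of the summed TPM of the 8 cyclins taken by each gene (stacked bars, in percent) in the input and the 2 YTHDF2 IP libraries. Ccne1 widens from 10.5% in the input to 32.2% and 30.4% in IP, while Ccnd3 narrows from 17.9% to 10.5% and 11.3%.

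In these libraries the log2 fold change moved with properties of the transcript, and the cyclins differ in those. Over 5 bins of 15201 tested protein-coding genes with near-equal gene numbers, the median log2 fold change went from −0.591 at the lowest GC content to 0.491 at the highest, and from 0.559 at the fewest exons per kb to −0.378 at the most. Ccne2, with 38.2% GC in its exons, and Ccnb1, with 43.8%, fell in the bin of lowest GC. Ccnd3, with 59.4% GC, fell in the bin of highest GC, and its −1.68 lay far below that bin's median. Ccne1 had the most exons per kb of the 8 cyclins, 6.14, and lay in the bin where the median was −0.378, yet its own value was 0.61. With the GC trend removed the log2 fold change of Ccnd3 was −2.30, that of Ccne2 was −1.91 and that of Ccne1 was 0.38. With the exon density trend removed that of Ccne1 was 0.962. The part of GC content or exon density in the values of single cyclins was not tested. From the lowest to the highest fold change, 3′ UTRs were 1681 bases long in Ccne2, 913 in Ccnd3, 939 in Ccnb1, 230 in Ccnb2, 1369 in Ccna2, 2676 in Ccnd1, 4627 in Ccnd2 and 531 in Ccne1.

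**Figure D4:**
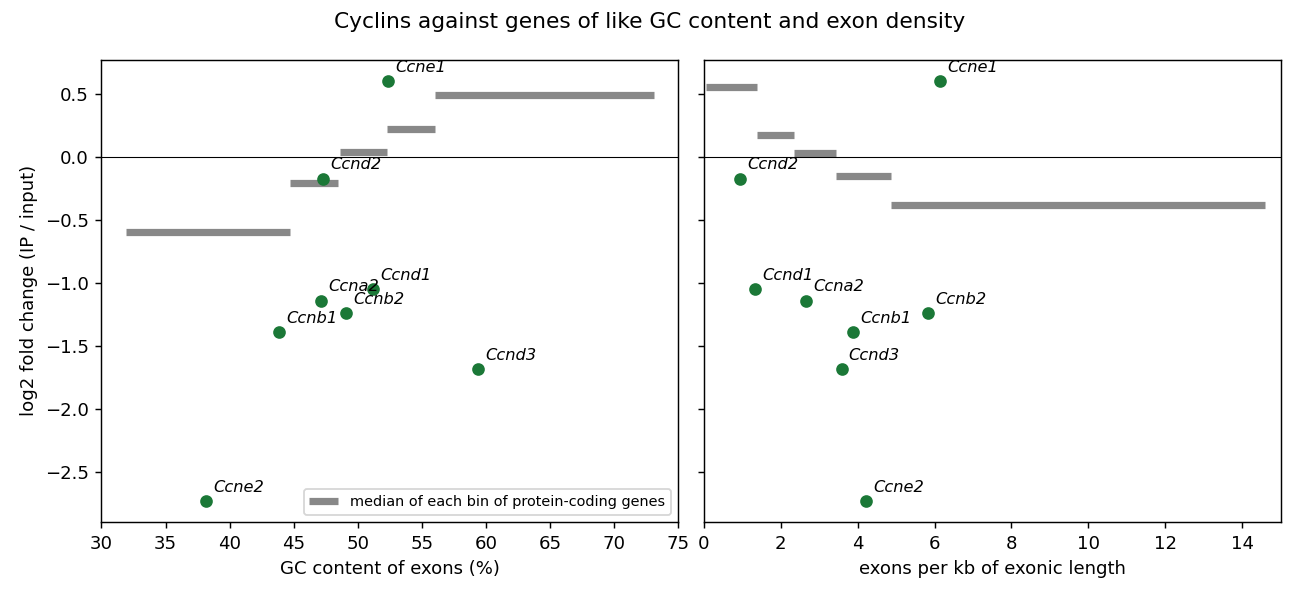
Log2 fold change of each cyclin (points, vertical axis) against the GC content of its exons in percent (left) and its exons per kb of exonic length (right), with grey bars at the median of each bin of tested protein-coding genes, drawn over that bin's range. The 6 depleted cyclins lie below the bar of their own bin in both panels, and Ccne1, at 0.61, lies above its bar in both.

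The genes most like Ccne1 and Ccne2 were sought over all tested genes by the distance between their log2 ratios in both IP libraries and their log2 level in the input. Closest to Ccne1 were Rbbp6 (distance 0.0699), Ctdsp2 (0.0761) and Zscan10 (0.09), and Rbbp6 had 4368 input counts, against 6799 and 7009 in IP. Closest to Ccne2 were Mrgprx2 (0.185), Gm9923 (0.247) and Uevld (0.262), and Mrgprx2 had 322 input counts, against 52 and 48 in IP. The measure rests on 3 libraries.

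Beside the 8 cyclins, 94 of 96 genes on 7 lists of the cyclin and CDK pathway were tested, of which 10 were enriched and 20 were depleted, where 15.2% and 14.0% of all tested genes were. Counts this small on a single list can lie near those shares, and nothing is read from them. Their median log2 fold change was −0.293. With the dispersion set to 0.1, the calls named below for Cdkn2c, Wee1, E2f1, Rb1, Rbl1, Fbxw7, Skp2, Nek2, Ttk and Aurkb were lost. Of 18 tested members of the wider cyclin family, which mostly serve transcription or have other roles, 2 were enriched and 4 were depleted, with a median of −0.199. The enriched Ccnq, a partner of CDK10, had 599 input counts, against 4270 and 4096 in IP, or 6.79-fold higher. Ccnt2, a partner of CDK9, was 2.82-fold lower and Ccnk, a partner of CDK12 and CDK13, was 2.78-fold lower.

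Of 11 genes for CDKs, their Cks subunits and the assembly factor of the CDK-activating kinase, 1 was enriched and 3 were depleted, with a median of −0.51. Cdk2, the partner of the E-type cyclins and cyclin A2, was depleted, with 3283 input counts, against 690 and 791 in IP. Both IP libraries were far below the input, at a log2 fold change of −2.19 ± 0.10 (SE) (edgeR adjusted p = 2.42e-33). Mnat1, the assembly factor, was 3.34-fold lower, and Cdk9, a kinase of transcription elongation, was 4.47-fold higher. Of 7 CDK inhibitors, 3 were enriched and 1 was depleted, with a median of −0.196. With the GC trend removed 2 were enriched and 2 were depleted, and with the exon density trend removed 2 were enriched and 1 was depleted. Cdkn2b, an inhibitor of the CDKs of D-type cyclins, rose from 150 counts to 1225 and 1231. Cdkn2c, another of that family, was 2.97-fold higher, whereas Cdkn1b, which binds complexes of cyclin E and CDK2, was 2.73-fold lower.

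Of 5 genes that add or remove inhibitory phosphates on CDKs, 0 were enriched and 1, the kinase Wee1, was depleted (2.24-fold lower), with a median of −0.0489 and a highest value of 0.245. Of 14 genes of the RB and E2F families and their partners, the targets of cyclin D kinases and the factors they release, 2 were enriched and 2 were depleted, with a median of −0.506. E2f1 was 2.37-fold higher, and the pocket proteins Rb1 and Rbl1 were 2.21-fold and 2.34-fold lower. Removing the GC trend ended all of these calls, at log2 fold changes of 0.735 for E2f1, −0.719 for Rb1 and −0.678 for Rbl1, and left 0 enriched and 1 depleted gene on this list. Of 28 genes that destroy cyclins or CDK inhibitors, or control that destruction, 2 were enriched and 4 were depleted, with a median of 0.10. Fbxw7, which marks cyclin E for destruction, was 2.69-fold higher, and Ube2c, which serves the destruction of mitotic cyclins, was 4.93-fold lower. Skp2, which marks the Cdkn1b protein, was 2.29-fold lower. Depleted genes of this list numbered 2 with total counts, TPM scaling or the GC trend removed, where Skp2 came to −0.994 in the last of these.

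Of 11 genes of mitosis, mostly kinases but also the checkpoint gene Mad2l1 and the transcription factors Foxm1 and Mybl2, 0 were enriched and 5 were depleted, with a median of −0.765 and a highest value of 0.617. The 3 furthest from 0 were Nek2, a kinase of centrosome separation, at 2.29-fold lower, Ttk, of the spindle checkpoint, at 2.17-fold lower, and Aurkb, of chromosome segregation, at 2.17-fold lower. Depleted genes of this list numbered 1 with TPM scaling, where Ttk (−0.967) and Aurkb (−0.964) fell short of the fold, and 3 with the GC or the exon density trend removed, where Ttk was at −0.662 and −0.684. The median of the 8 cyclins, −1.19, lay below that of each of the 7 lists, and no test compared them.

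**Figure D5:**
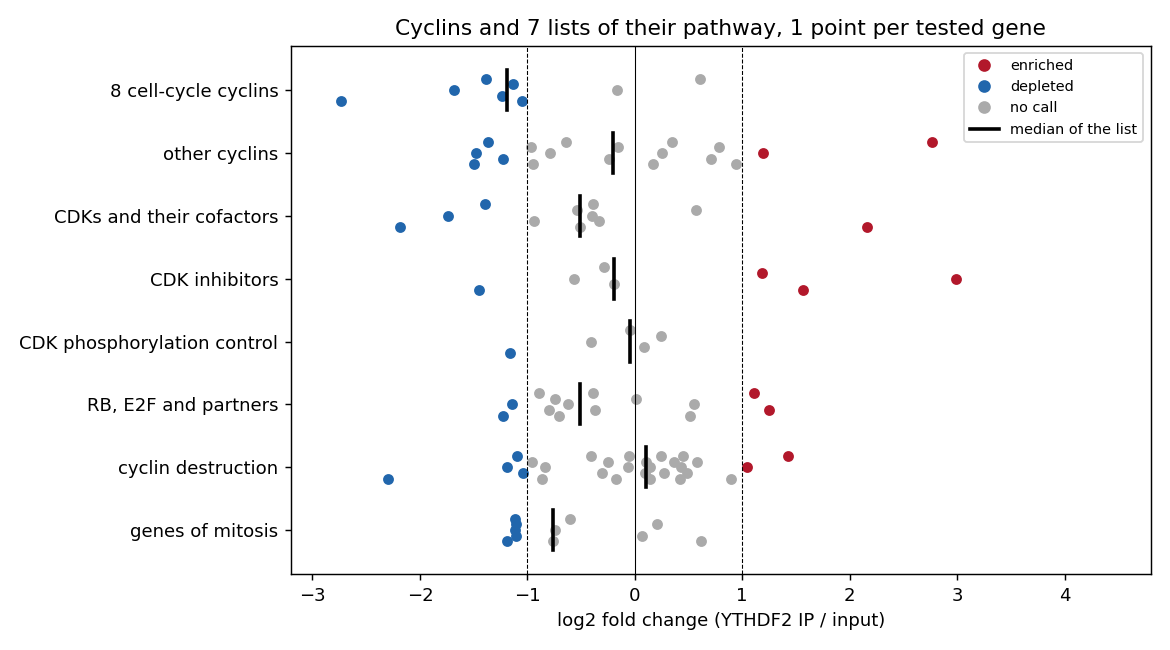
Log2 fold change of IP over input (horizontal axis) for each tested gene of the 8 cyclins and of 7 pathway lists (rows), coloured by call, with a black bar at each list's median and dashed lines at a fold of 2. The median of the cyclins is −1.19, and the list medians run from −0.765 for genes of mitosis to 0.10 for cyclin destruction.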

How the data were processed

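RIP-seq libraries were grouped by sample title into 1 input and 2 YTHDF2 IP libraries. The labels describe Trizol-extracted total RNA used in the IP, whereas the methods describe an IP from cleared lysate, and the study calls the input total RNA without saying whether it came from whole cells or lysate. The submitters' processing notes name fastp 0.19.4, HISAT2 2.2.1, DESeq2 1.40.2 and mm10. The deposited values are raw counts per gene, which per the file headers came from featureCounts 2.0.3 on RefSeq exons, run on paired ends but not set to count pairs. Each mate was therefore counted on its own, strand was not used although the kit marks it, and reads over several places or genes were left out by that tool's defaults. The table held 0 columns of other samples and 0 rows without a gene name.

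Counts were fitted in R 4.3.3 with edgeR 4.0.16 (filterByExpr, TMM, robust estimateDisp, glmQLFit with the robust option and legacy set to FALSE, glmQLFTest), with Benjamini-Hochberg adjustment over 19601 genes. TMM factors were 0.957, 1.02 and 1.02. The fit has 1 residual degree of freedom, from the IP libraries alone, and the common dispersion was 0.00538. A count of 3, the floor for a gene at 0, is 0.0811 CPM in the input. Log2 ratios per library used 0.5 added counts and TMM-scaled library sizes, and TPM used the exonic lengths of the table. Sequences, GC content and exons came from GRCm38.p6, where all 8 cyclins had the table's start and end. Copies were sought with blastn 2.17.0, over at least 100 bases. Python 3.11.15 and DESeq2 1.42.0 served the summaries and an alternative test.

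The members, lists and tests were chosen with earlier results of these data known. Named are all 8 cyclins, at most the 3 called genes furthest from 0 per pathway list, and the 3 genes nearest to the highest and the lowest cyclin. Alternatives changed the scaling, test, filter, dispersion, counting of mates, trends with GC, length or exon density, or left out 1 IP library.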

Additional observations from a re-analysis of the deposited data

How the results depend on the processing

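Over 14 alternatives, 0 cyclins were enriched under any, as in the reported fit. The fixed dispersion of 0.1 lowered the depleted cyclins from 6 to 2, those lower at any fold from 6 to 2 and those higher at any fold from 1 to 0. Adjusted p-values there were 0.133 for Ccna2, 0.0589 for Ccnb1, 0.098 for Ccnb2 and 0.175 for Ccnd1, the highest over each gene's alternatives, whose lowest ran from 5.6e-122 for Ccnb1 to 2.44e-22 for Ccnd1. It also lowered all enriched genes from 2973 to 1577 and all depleted genes from 2743 to 1531. Depleted cyclins numbered 4 with TPM scaling, 4 with the GC trend removed, 5 with total counts and 5 with the exon density trend removed. Without replicate 1 or without replicate 2 of the IP, which leaves no residual degree of freedom, 0 cyclins were over 2-fold higher and 6 were over 2-fold lower in each case. The legacy quasi-likelihood fit, an alternative chosen after seeing the data, left 6 depleted. TPM scaling moved the median of all genes to 0.158 and total counts to 0.103. With the GC trend removed, the list medians of other cyclins (0.0655) and cyclin destruction (−0.0255) changed sign, and that of CDK inhibitors went from −0.196 to −0.59. The median of CDK phosphorylation control, −0.0489, was 0.0471 with total counts, 0.102 with TPM scaling, 0.0948 with the exon density trend removed and 0.0368 without IP replicate 1. The causes were not tested. Of 728 other values, 629 were scored as unchanged, by limits that differed with the kind of value. Single genes had to keep their call, or, with 1 IP library left out, move by less than the spread between IP libraries. List medians had to move by less than that spread, and the median of all genes by less than a fixed limit. Counts of calls could change within a set ratio. All enriched genes, for example, went from 2973 to 2190 with at least 1 CPM required in every library, scored as unchanged. The log2 fold change of Ccnd2 was −0.424 without IP replicate 1 and 0.0563 without replicate 2, and its 70 input counts limit it. No paired analysis was possible because there is 1 input library and its title gives no number to pair it by.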
